A study of Mus musculus with 12 samples.

Results

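The 8 genes described here encode calcium-binding proteins of neurons: Calb1 (calbindin), Calb2 (calretinin), Pvalb (parvalbumin), Necab1, Necab2, Hpca (hippocalcin), Hpcal1 and Ncald (neurocalcin delta). They were chosen by name out of the 24489 genes of the count table, without use of their values. All 8 were present in the table and passed the low-count filter in each of the 10 comparisons below.

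All 8 proteins bind calcium through EF-hand loops. Calbindin, calretinin and parvalbumin are mobile buffers that take up calcium as it enters an axon terminal or a hair cell. Hippocalcin, Hpcal1 and neurocalcin delta belong to the neuronal calcium sensors, which carry a lipid anchor that is exposed on calcium binding and moves the protein to membranes. The Necab proteins pair EF-hand loops with a second domain of unsettled function. In the cochlea, antibodies to calbindin, calretinin and parvalbumin are classical labels of spiral ganglion neurons (SGNs), which carry sound signals to the brainstem, and of hair cells (HCs). Type I SGNs, with the subtypes Ia, Ib and Ic, contact inner hair cells (IHCs), and type II SGNs contact outer hair cells (OHCs).

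Single cells from mouse cochlea were sorted for a red reporter into 384-well plates and sequenced with the full-length Smart-seq2 method, so that 1 plate is 1 sample. There were 2 plates at E14.5, 2 at E15.5, 3 at E16.5, 1 at E17.5, 2 at E18.5 and 2 at P3, each from several pooled animals. No treatment was given. The labels give the genotype PVcre;Ai14 for 11 plates and TrkCcre for E14.5 replicate 2, while the methods name the Ntrk3 (TrkC) driver for both E14.5 plates. In PVcre;Ai14 animals the red reporter is switched on by Cre made under control of Pvalb, which is itself a member, so the sort is not independent of that member. Glia-like and mesenchyme-like cells were collected as well. Stage and plate series also ran together: the E14.5, E15.5 and E17.5 plates and E16.5 replicate 3 came from series SS2_20, E16.5 replicates 1 and 2 from SS2_18, the E18.5 plates from SS2_19 and the P3 plates, taken from earlier work of the same group, from SS2_15. Differences between stages and between series can therefore be told apart only in part. By the methods, the Cre driver also changed between E14.5 and the later stages, and by the labels it did so for E14.5 replicate 2. If the methods hold, differences from E14.5 cannot be told apart from a difference in driver.

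After filtering, 4226 cells remained, of which 2251 were SGN-like, 1203 glia-like, 517 otic mesenchyme-like (OM-like) and 74 HC-like. Classes were named from marker genes that did not include any of the 8 members, and the members were also kept out of the clustering. The markers of the SGN subtypes go back in part to the earlier work on the same P3 plates. Each of the 12 SGN-like sums held all 9 SGN markers, and each cochlear HC-like sum held all 11 HC markers. These markers named the classes, so their detection is no separate check of the names. Glia-like sums at E14.5 also held all 9 SGN markers, and SGN-like sums at E18.5 all 11 HC markers. A level below is the member's CPM, its reads scaled to a common total of gene-assigned reads, after the counts of all cells of a class in a plate were summed, and n is the number of plates. The SGN-like sums held 15806393 to 303906928 counts. The summed level of 8 glial markers in SGN-like sums moved with stage and series: it was 26.8 to 45.3 CPM at E14.5, 30.5 CPM in E16.5 replicate 3 and up to 980 CPM in the other E16.5 plates, 3007 to 3019 CPM at E18.5 and 2736 to 3083 CPM at P3. Its part in the results below was not tested beyond leaving out SGN-like cells with Sox10, a glial transcription factor, at 10 CPM or more, which could not be done for type II.

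In genome build mm10 (GRCm38), Calb1 lies on chromosome 4 at 15881264 to 15908064 on the plus strand and Necab1 on the same chromosome at 14952245 to 15149794 on the minus strand. Calb2 (chromosome 8, 110137502 to 110168210, minus) and Necab2 (chromosome 8, 119446719 to 119472640, plus) share chromosome 8, and Pvalb (chromosome 15, 78191114 to 78206400, minus) and Ncald (chromosome 15, 37366175 to 37792570, minus) share chromosome 15. Hpca is at 129111570 to 129122036 on chromosome 4, minus strand, and Hpcal1 at 17690856 to 17791933 on chromosome 12, plus strand. All 8 are protein coding. Exons of Necab1, Hpca and Ncald overlap exons of other genes on the opposite strand, over 410 bases with Gm11837, 57 bases with Tmem54 and 347 bases with Gm28221. Ncald also shares 286 bases with Gm49397 on its own strand. Reads of such overlaps cannot be told apart here.

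Promoter windows of 300 bases, from 250 before to 50 after an annotated start, were available from RefSeq (GRCm38.p6) for Pvalb, Hpcal1, Necab2 and Hpca. Those of Pvalb, Hpcal1 and Necab2 are shown because, at E14.5, levels of Pvalb went with those of Hpcal1 and against those of Necab2 across single cells, and capitals mark the E-box CANNTG, the general recognition letters of basic helix-loop-helix factors such as Neurod1. Calb1, Calb2, Necab1 and Ncald are named only.
Pvalb, chr15:78206351-78206650, minus strand: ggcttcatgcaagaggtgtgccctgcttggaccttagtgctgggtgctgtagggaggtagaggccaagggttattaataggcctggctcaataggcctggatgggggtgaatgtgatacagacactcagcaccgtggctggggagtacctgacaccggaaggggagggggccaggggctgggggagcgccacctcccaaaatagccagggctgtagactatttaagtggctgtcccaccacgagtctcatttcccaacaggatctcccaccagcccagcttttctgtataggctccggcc
Hpcal1, chr12:17690559-17690858, plus strand: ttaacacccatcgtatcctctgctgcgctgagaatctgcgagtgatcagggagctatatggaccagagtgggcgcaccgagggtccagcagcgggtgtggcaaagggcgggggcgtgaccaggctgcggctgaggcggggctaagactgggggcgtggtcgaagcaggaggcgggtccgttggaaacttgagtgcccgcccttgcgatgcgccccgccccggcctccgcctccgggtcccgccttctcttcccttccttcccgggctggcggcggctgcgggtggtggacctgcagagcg
Necab2, chr8:119446469-119446768, plus strand: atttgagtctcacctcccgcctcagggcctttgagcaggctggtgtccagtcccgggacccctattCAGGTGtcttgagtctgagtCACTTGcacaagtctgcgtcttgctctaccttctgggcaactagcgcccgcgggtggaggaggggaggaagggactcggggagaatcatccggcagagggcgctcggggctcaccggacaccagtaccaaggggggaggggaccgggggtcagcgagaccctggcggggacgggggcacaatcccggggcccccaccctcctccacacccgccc
The Necab2 window held 2 E-boxes, starting 183 and 163 bases before the start. The windows of Hpcal1 and of the Pvalb start shown held 0, and that of another annotated Pvalb start held 2. CANNTG reads the same on both strands, and 72.3% of 32544 mouse windows of this length held at least 1 and 39.6% at least 2. A match is a description of the letters and not a bound site.

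The first comparison asked how the members changed as SGNs differentiated. Between E14.5 and E16.5, Necab1, Hpca and Calb2 rose and Calb1 and Necab2 fell in SGN-like cells. Calb2 rose again by E18.5, and Calb1 and Pvalb rose and Hpca fell from E18.5 to P3. At the main settings Ncald and Hpcal1 did not pass the test at any of these steps, though each passed under some alternative.

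**Figure D1:**
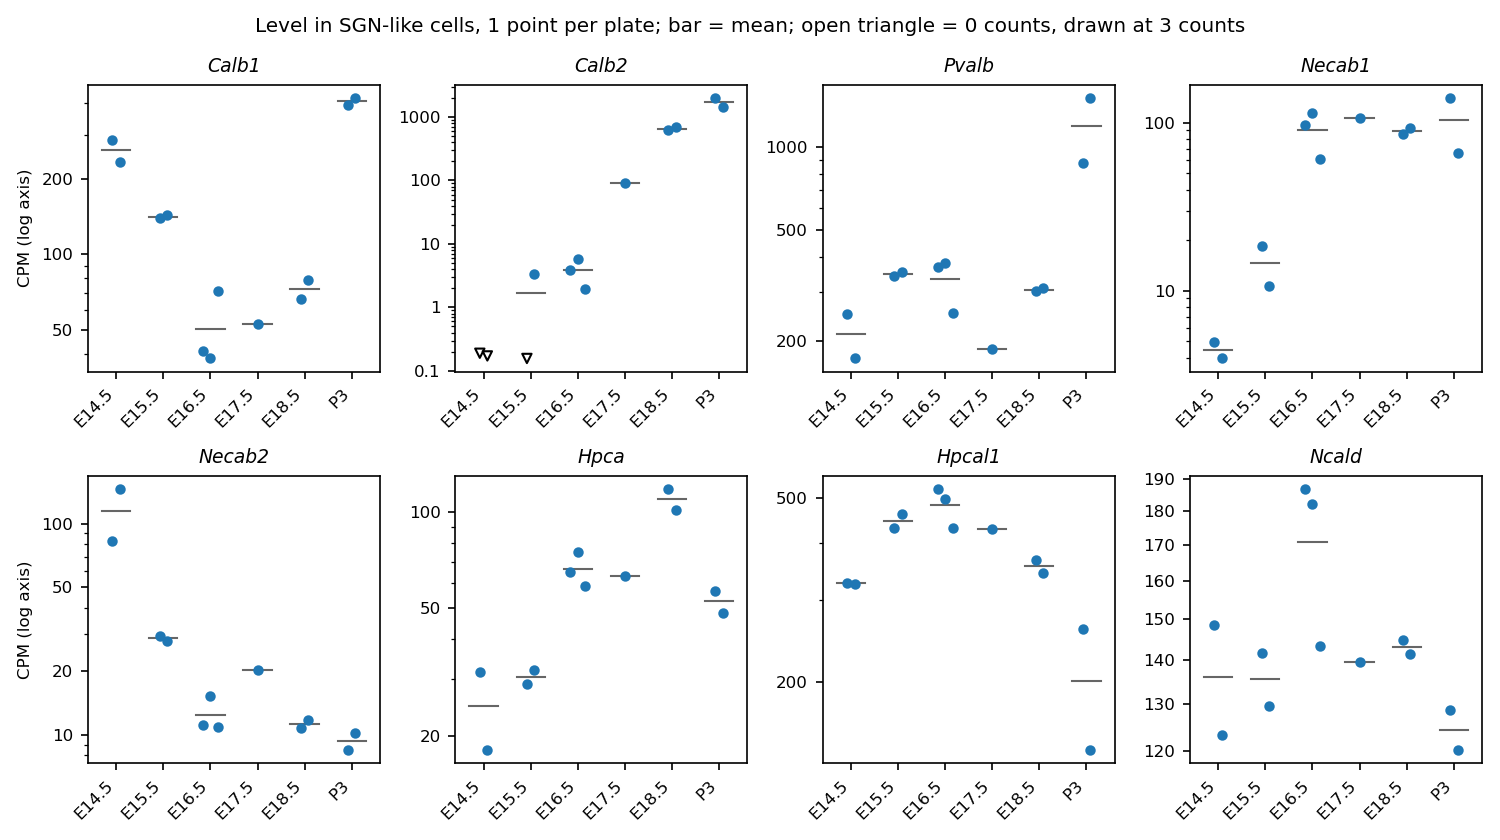
Level of each member in SGN-like cells (CPM, log axis) against stage, with 1 point per plate and a bar at the mean of the plates. Open triangles stand for plates with 0 counts and are drawn at the level of 3 counts; Calb2 climbs from 0 counts at E14.5 to 2024 and 1451 CPM at P3, Necab2 falls from 146 and 83.2 CPM, and Ncald stays between 120 and 187 CPM.

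Calb2, the calretinin gene, had 0 counts in both E14.5 plates, where 3 counts would be 0.189 CPM at most. It was at 0 and 3.31 CPM at E15.5, at 3.90, 5.80 and 1.95 CPM in the 3 E16.5 plates, and at 92.3 CPM at E17.5. It reached 614 and 699 CPM at E18.5 and 2024 and 1451 CPM at P3. The E15.5 plates overlapped with both neighbouring stages, and from E16.5 on no stage overlapped with the next. Against the E14.5 limit, the E16.5 mean of 3.88 CPM was at least 20.5-fold higher (edgeR quasi-likelihood test with Benjamini-Hochberg adjustment over all genes, adjusted p = 0.0235). That call was lost without E16.5 replicate 2 (fitted log2 value 10.92, adjusted p = 0.0580), without E14.5 replicate 1 (11.45, adjusted p = 0.0920), without E14.5 replicate 2 (11.44, adjusted p = 0.0749) and within series SS2_20 alone (12.71, adjusted p = 0.0916). From E16.5 to E18.5 the fitted log2 fold change was 7.30 ± 0.63 (SE, adjusted p = 0.000605), and the call held under all 19 alternatives. From E18.5 to P3 it was 1.68 ± 0.58 and did not pass at the main settings (adjusted p = 0.0618). This last step passed with thinned cells (1.76, adjusted p = 0.00415) and without the low-count filter (1.68, adjusted p = 0.0197). Leaving out E15.5 replicate 1 (1.68, adjusted p = 0.00749), E15.5 replicate 2 (1.68, adjusted p = 0.00756) or E16.5 replicate 3 (1.68, adjusted p = 0.0338) gave a pass too, and the remaining alternatives did not.

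Necab1 rose over the same window. It was at 3.95 and 4.92 CPM at E14.5, 18.6 and 10.7 CPM at E15.5, and 97.5, 115 and 61.2 CPM at E16.5. The 3 stages did not overlap, and the change from E14.5 to E16.5 was a log2 fold change of 4.37 ± 0.44 (SE, adjusted p = 0.000169). After that it levelled off, with 107 CPM at E17.5, 85.2 and 92.9 CPM at E18.5 and 141 and 66.4 CPM at P3, and neither later step passed the test.

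Calb1, the calbindin gene, went down and came back. Its level was 234 and 286 CPM at E14.5, 138.9 and 143.3 CPM at E15.5, and 41.0, 38.3 and 71.4 CPM at E16.5. It stood at 52.5 CPM at E17.5 and 66.4 and 78.9 CPM at E18.5, and at 394 and 421 CPM at P3. The E14.5 and P3 plates were all above every plate between them. The fall from E14.5 to E16.5 was a log2 fold change of -2.39 ± 0.23 (SE, adjusted p = 0.000111) and the rise from E18.5 to P3 one of 2.76 ± 0.26 (adjusted p = 6.74e-05), both called under all of their alternatives, 20 for the first and 19 for the second.

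Necab2 was high only early. The E14.5 plates had 146 and 83.2 CPM, the E15.5 plates 29.5 and 28.0 CPM and the E16.5 plates 11.1, 15.2 and 10.9 CPM. Later plates lay between 8.48 and 20.3 CPM. The log2 fold change from E14.5 to E16.5 was -3.21 ± 0.25 (SE, adjusted p = 5.34e-05), and the 2 later steps did not pass.

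Pvalb, whose control region drives the Cre in PVcre;Ai14 animals, was present from E14.5, where the methods name the Ntrk3 driver instead. It was at 172 and 249 CPM at E14.5, 341 and 355 CPM at E15.5, and 367, 380 and 251 CPM at E16.5. It was at 187 CPM at E17.5 and 302 and 309 CPM at E18.5, and the P3 plates, at 875 and 1506 CPM, stood above all others. The rise from E18.5 to P3 was a log2 fold change of 2.23 ± 0.27 (SE, adjusted p = 0.000238), and the embryonic steps did not pass at the main settings.

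Of the 3 neuronal calcium sensors, Hpca alone passed the test at any step at the main settings. Hpca, best known from hippocampal neurons, was at 18.04 and 31.6 CPM at E14.5, 64.9, 75.2 and 58.7 CPM at E16.5, 118 and 102 CPM at E18.5 and 56.9 and 48.4 CPM at P3. Its rise to E16.5 was a log2 fold change of 1.42 ± 0.22 (SE, adjusted p = 0.00220). The further step to E18.5, without overlap of plates, was 0.74 ± 0.21 and did not pass at the main settings (adjusted p = 0.0739). That step passed with DESeq2 (0.75, adjusted p = 0.00845), thinned cells (0.66, adjusted p = 0.0377), no low-count filter (0.76, adjusted p = 0.0343) and Sox10-positive cells left out (0.91, adjusted p = 0.0322). It also passed without either E14.5 plate, but not under the remaining alternatives. Its fall from E18.5 to P3 was -0.79 ± 0.23 (adjusted p = 0.0281), a call that was lost when any 1 of the 4 plates was left out: without P3 replicate 1 (-0.93, adjusted p = 0.0632), without P3 replicate 2 (-0.68, adjusted p = 0.166), without E18.5 replicate 1 (-0.69, adjusted p = 0.163) and without E18.5 replicate 2 (-0.90, adjusted p = 0.0666). Hpcal1 had 326 and 328 CPM at E14.5 and 522, 496 and 431 CPM at E16.5, and 260.1 and 142.5 CPM at P3, with adjusted p = 0.0918, 0.307 and 0.101 at the 3 steps. With DESeq2 it passed at the first step (0.51, adjusted p = 0.0404) and the last (-0.55, adjusted p = 0.0340). Thinned cells also passed at the first (0.58, adjusted p = 0.0471). Its fitted log2 values were 0.56, -0.44 and -0.54, and without P3 replicate 1 they were 0.54, -0.46 and -1.06. Without that plate it passed at the first step (adjusted p = 0.00773) and the middle step (adjusted p = 0.0335), whose own plates were all kept. Without P3 replicate 2 it also passed at both (0.54, adjusted p = 0.00761, and -0.46, adjusted p = 0.0331). Ncald was the steadiest member, with plates between 120 and 187 CPM and fitted log2 differences of 0.33, -0.25 and 0.07 (adjusted p = 0.129, 0.397 and 0.779).

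Of the 8 members, 5 were called from E14.5 to E16.5, where 15.1% of all 17765 genes tested were. From E16.5 to E18.5 it was 1 member beside 4.7% of genes, and from E18.5 to P3 it was 3 beside 24.7%. The median size of the members' log2 change was 1.90 at the first step, against 0.52 over all genes, then 0.34 against 0.34, and 0.67 against 0.66. Per kilobase of exon, which allows genes to be compared, Pvalb (165.5 and 239 CPM per kb) and Hpcal1 (192 and 193) led at E14.5 and overlapped. At P3 Pvalb (840.2 and 1447) and Calb2 (1161 and 833) led and also overlapped, well above Hpcal1 (154 and 84.1) and Calb1 (81.3 and 87.0).

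Of the other calcium genes, 4 lists were followed. Among 9 neuronal calcium sensors tested out of 10, 3 rose and 1 fell from E14.5 to E16.5, 3 rose from E16.5 to E18.5 and 4 rose from E18.5 to P3. Vsnl1 (visinin-like 1), which is close to hippocalcin in sequence, rose at all 3 steps, with log2 fold changes of 3.35 ± 0.54, 1.93 ± 0.38 and 3.47 ± 0.46 (SE). Kcnip3, a potassium channel partner, fell first (-1.80 ± 0.39) and then rose (1.86 ± 0.38 and 4.00 ± 0.46). Of 14 EF-hand buffers and S100 proteins, 1 rose and 1 fell at the first step and 2 rose at the last. S100b, a protein that glia also express, rose by 4.94 ± 0.90 and 3.51 ± 0.69 on the log2 scale at the first and the last step. Of 10 calmodulin-type genes tested out of 12, 1 rose and 1 fell, then 1 rose and 1 fell, then 4 rose and 1 fell. Calm2 was among them, with 0.74 ± 0.09 and 1.39 ± 0.10 at the last 2 steps. Of 22 pumps, exchangers and store channels, 2 rose at the first step, and 3 rose and 2 fell at the last.

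At early stages the sums of whole SGN-like populations mix cell states, and fewer cells with a transcript cannot be told apart from less transcript per cell. The 8 members were therefore also followed in named groups. At E14.5, the 49 and 33 unspecialized-like SGNs had 286 and 357 CPM of Calb1, 188 and 152 CPM of Necab2, and 88.6 and 105 CPM of Pvalb. The few Ic-like cells of the same plates, 7 and 9, had 373 and 489 CPM of Pvalb and 86.5 and 0 CPM of Necab2. Calb1 in them was 52.2 and 366 CPM, so the plates disagreed there. At E15.5 Calb1 was at 218 and 230 CPM in Ic-like cells and at 45.3 and 53.4 CPM in intermediate Ia/Ib/II-like cells, while Necab1 ran the other way, at 6.12 and 0 CPM against 87.4 and 30.1 CPM. These early groups were compared without a test.

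The earliest tested subtype comparison was that of Ic-like with intermediate Ia/Ib/II-like SGNs at E16.5, in the 3 plates of that stage. Calb1 was higher and Hpca lower in Ic-like cells. Calb1 was at 96.6, 85.9 and 125 CPM in Ic-like and at 16.9, 19.4 and 13.1 CPM in intermediate cells, and the groups lay far apart (log2 fold change 2.63 ± 0.22, SE, adjusted p = 0.00121). Hpca was at 46.2, 55.1 and 38.8 CPM against 89.2, 98.5 and 91.0 CPM (-0.97 ± 0.16, adjusted p = 0.0230), but this call was lost without replicate 1 (-0.98, adjusted p = 0.375), without replicate 2 (-1.06, adjusted p = 0.262) and without the Sox10-positive cells (-0.86, adjusted p = 0.0520).

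Pvalb and Necab1 split the same groups without overlap. Pvalb was at 568, 661 and 377 CPM in Ic-like and 219, 205 and 85.4 CPM in intermediate cells. Its log2 fold change of 1.66 ± 0.34 missed the threshold at the main settings (adjusted p = 0.0556). It passed with the plate as a block (1.73, adjusted p = 0.00774), with DESeq2 (1.68, adjusted p = 7.52e-06) and without replicate 3 (1.54, adjusted p = 7.08e-06). Finer clusters (adjusted p = 0.0163), no low-count filter (0.00929), the Reporting Summary cell filter (0.0416), thinned cells (0.0391) and leaving out Sox10-positive cells (0.0493) also passed. The remaining alternatives did not. Necab1 was at 32.0, 35.1 and 0 CPM against 160, 182 and 150 CPM, yet did not pass (-2.77 ± 0.81, adjusted p = 0.200), and Calb2 at 1.17, 0.975 and 0 CPM against 7.08, 11.1 and 5.25 CPM did not either (-3.27 ± 0.86, adjusted p = 0.142). Without replicate 3 both passed, Necab1 at -2.34 (adjusted p = 3.34e-06) and Calb2 at -3.07 (adjusted p = 0.00101). Calb2 also passed with DESeq2 (-3.27, adjusted p = 0.000626), and the remaining alternatives did not pass. In all, 2 of 8 members were called, beside 1.8% of 14303 genes. The glial marker sum was 36.6 to 875 CPM in Ic-like and 30.01 to 205 CPM in intermediate sums.

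At E18.5 and P3 all 4 mature subtypes could be named, and they were compared over both stages together with stage as a term. Calb1 had its highest levels in Ib-like cells and Calb2 in Ia-like cells, though neither passed the test against the next class. The highest levels of Necab1 and Hpcal1 were in II-like cells, where Pvalb was lowest. At E18.5, 66 cells with markers of both Ib and Ic (35 and 31 in the plates) and unnamed SGN-like cells (76 and 75) entered none of these sums. The mixed Ib/Ic cells held 5961 to 6522 CPM of glial markers, more than any of the 4 subtypes, and had 94.8 and 119 CPM of Calb1 and 227 and 335 CPM of Calb2. The unnamed cells held 3182 to 3958 CPM of glial markers. The classes came from other genes of the same cells, so they are not independent of the members in the way that separate samples would be.

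**Figure D2:**
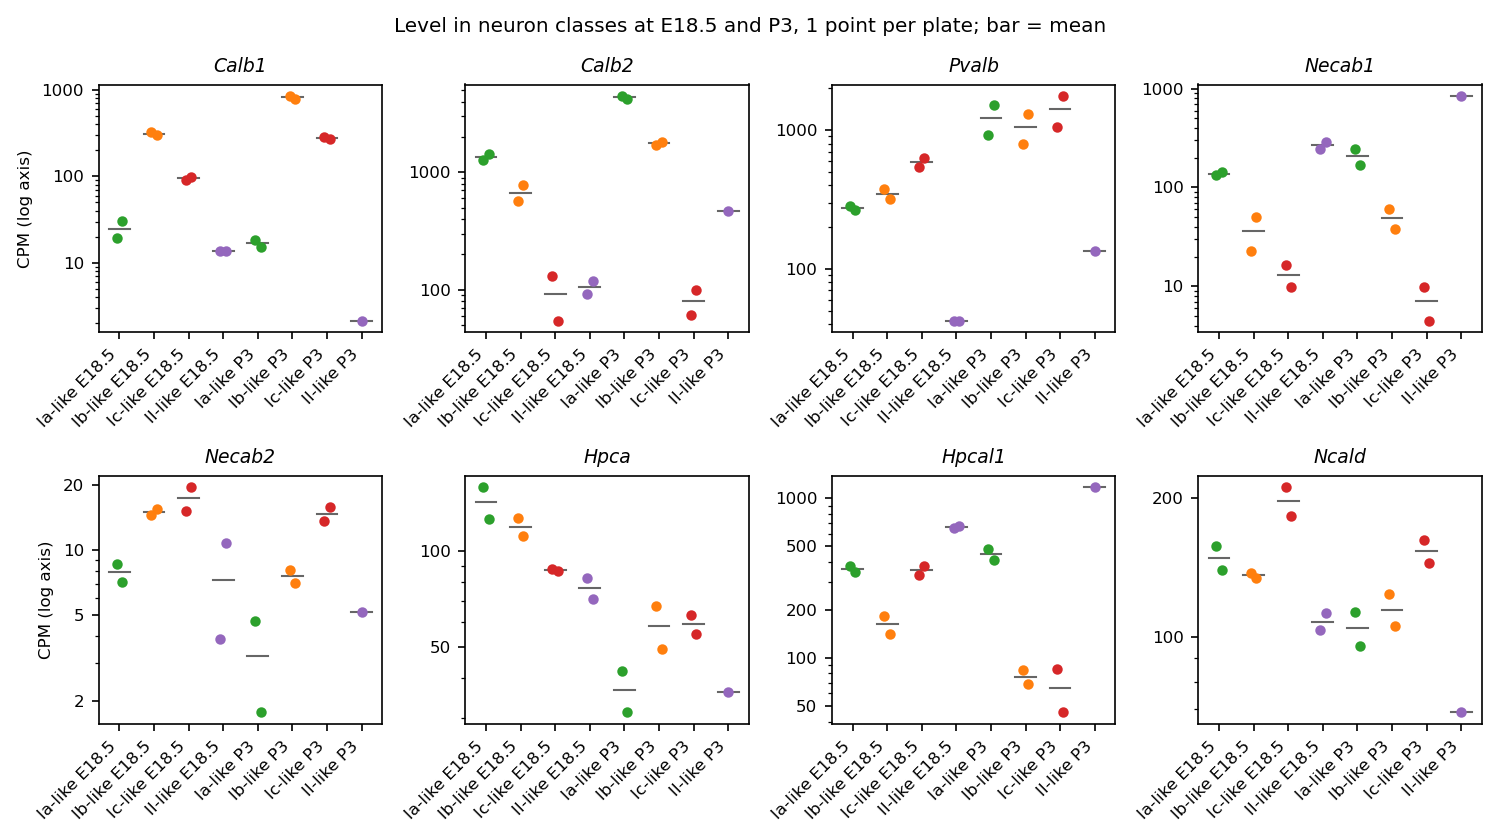
Level of each member (CPM, log axis) in Ia-like, Ib-like, Ic-like and II-like SGNs at E18.5 and P3, with 1 point per plate and a bar at the mean. II-like cells at P3 come from 1 plate. Calb1 peaks in Ib-like cells (298 to 854 CPM), Calb2 in Ia-like cells (1268 to 4477 CPM), and Necab1 (242 to 846 CPM) and Hpcal1 (652 to 1173 CPM) in II-like cells, where Pvalb is lowest (42.1 to 135 CPM).

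Calb1 was low in Ia-like cells, where it was at 19.3 and 30.6 CPM at E18.5 and 18.3 and 15.496 CPM at P3. In Ib-like cells it was at 322 and 298 CPM and then 854 and 793 CPM, and in Ic-like cells at 91.9 and 97.6 CPM and then 284 and 271 CPM. No plate of 1 class reached another class at the same stage. Ib-like exceeded Ia-like cells by a log2 fold change of 4.62 ± 0.55 (SE, adjusted p = 0.000306) and Ic-like exceeded Ia-like cells by 2.99 ± 0.52 (adjusted p = 0.00246). The lower value in Ic-like than in Ib-like cells did not pass (-1.63 ± 0.48, adjusted p = 0.221), nor did it with the plate as a block (-1.63, adjusted p = 0.283). It passed without Sox10-positive cells (-1.85, adjusted p = 0.00540) and with cells thinned to 100000 counts (-1.61, adjusted p = 0.0265). Without the low-count filter it also passed (-1.63, adjusted p = 3.4e-11). II-like cells had 13.8 and 13.9 CPM at E18.5 and 2.14 CPM at P3, and lay below the mean of the type I classes by -3.68 ± 0.61 (adjusted p = 0.000421).

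Calb2 was graded from Ia to Ib to Ic. Ia-like cells had 1268 and 1431 CPM at E18.5 and 4477 and 4224 CPM at P3. Ib-like cells had 565 and 774 CPM and then 1713 and 1814 CPM. Ic-like cells had 131 and 54.3 CPM and then 60.7 and 99.8 CPM, the only one of the 3 type I classes whose stages overlapped. The log2 fold change was -4.68 ± 0.44 (SE, adjusted p = 1.25e-05) for Ic-like against Ia-like and -3.52 ± 0.41 (adjusted p = 0.000946) for Ic-like against Ib-like cells, and the second was lost without E18.5 replicate 2 (-3.45, adjusted p = 0.105). Ib-like did not pass against Ia-like cells (-1.16 ± 0.37, adjusted p = 0.172). II-like cells, at 91.8 and 119 CPM and then 468 CPM, were below type I (-1.71 ± 0.38, adjusted p = 0.00430). That call was lost without E18.5 replicate 2 (-1.64, adjusted p = 0.0679) and with finer clusters, at a Leiden resolution of 2 (-0.20, adjusted p = 0.783).

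Necab1 formed a gradient with II-like cells at the top. They had 242 and 290 CPM at E18.5 and 846 CPM at P3. Ia-like cells followed with 133.4 and 142.9 CPM and then 242 and 169 CPM, Ib-like cells with 22.5 and 49.7 CPM and then 59.9 and 37.7 CPM, and Ic-like cells with 16.48 and 9.76 CPM and then 9.76 and 4.45 CPM. The 4 classes did not overlap at either stage. II-like cells exceeded type I by a log2 fold change of 3.32 ± 0.31 (SE, adjusted p = 2.55e-06) and Ic-like cells lay below Ia-like cells by -4.07 ± 0.45 (adjusted p = 5.63e-05). Ib-like against Ia-like cells (-1.99 ± 0.40, adjusted p = 0.0167) was lost without E18.5 replicate 1 (-1.88, adjusted p = 0.0659) or replicate 2 (-2.19, adjusted p = 0.117). Ic-like against Ib-like cells (-2.08 ± 0.43, adjusted p = 0.0438) was lost without E18.5 replicate 2 (-1.93, adjusted p = 0.605), without P3 replicate 2 (-1.85, adjusted p = 0.0797), with finer clusters (-1.76, adjusted p = 0.232) and without Sox10-positive cells (-1.55, adjusted p = 0.118).

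Pvalb set type II apart. II-like cells had 42.4 and 42.1 CPM at E18.5 and 135 CPM at P3. The type I classes had 265 to 626 CPM at E18.5 and 793 to 1768 CPM at P3, all above the II-like sums of their stage. The log2 fold change was -3.30 ± 0.25 (SE, adjusted p = 3.49e-07), and it was called in all 11 alternatives. Among the type I classes Pvalb was at 546 and 626 CPM in Ic-like and 282 and 265 CPM in Ia-like cells at E18.5. Their difference over both stages did not pass at the main settings (0.64 ± 0.21, adjusted p = 0.115), though it did with the plate as a block (0.65, adjusted p = 0.0294). It also passed without Sox10-positive cells (1.17, adjusted p = 0.0211) and without the low-count filter (0.64, adjusted p = 6.04e-06). So it did without P3 replicate 1 (0.81, adjusted p = 0.00851) or replicate 2 (0.80, adjusted p = 0.0196), but not under the remaining alternatives.

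Hpcal1 changed its class order with age. At E18.5 it was at 379 and 346 CPM in Ia-like, 184 and 142 CPM in Ib-like and 332 and 378 CPM in Ic-like cells. At P3 Ia-like cells were at 480 and 411 CPM while Ib-like cells were at 83.5 and 68.3 CPM and Ic-like cells at 85.0 and 45.6 CPM. Ia-like and Ic-like plates thus overlapped at E18.5 and lay far apart at P3. II-like cells held the most, with 652 and 670 CPM and then 1173 CPM. They were above type I by a log2 fold change of 1.92 ± 0.38 (SE, adjusted p = 0.00180), a call that was lost without P3 replicate 1, the only P3 plate with enough II-like cells (1.15, adjusted p = 0.0816).

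The remaining members differed less. Ncald was at 104 and 113 CPM and then 68.8 CPM in II-like cells, below every type I sum of the same stage (-0.76 ± 0.10, SE, adjusted p = 5.55e-05). In Ic-like cells it was at 211 and 183 CPM and then 162 and 144.4 CPM, above Ia-like cells (0.48 ± 0.10, adjusted p = 0.0104). The Ncald difference was lost without P3 replicate 2 (0.44, adjusted p = 0.0739), E18.5 replicate 1 (0.50, adjusted p = 0.0879) or E18.5 replicate 2 (0.50, adjusted p = 0.0666) and without Sox10-positive cells (0.48, adjusted p = 0.0505).

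Necab2 was low in all subtypes, at 8.68 and 7.17 CPM and then 4.68 and 1.77 CPM in Ia-like and 15.2 and 19.6 CPM and then 13.6 and 15.9 CPM in Ic-like cells. Ic-like exceeded Ia-like cells by 1.66 ± 0.35 on the log2 scale (SE, adjusted p = 0.0108), a call lost without P3 replicate 2 (1.28, adjusted p = 0.0542), without E18.5 replicate 2 (1.69, adjusted p = 0.108) and without Sox10-positive cells (1.30, adjusted p = 0.0956). Hpca was lower in II-like cells (82.5 and 70.8 CPM, then 36.3 CPM) than in type I (-0.68 ± 0.21, adjusted p = 0.0296). That call was lost when P3 replicate 1 (-0.65, adjusted p = 0.0957), E18.5 replicate 1 (-0.67, adjusted p = 0.0985) or E18.5 replicate 2 (-0.67, adjusted p = 0.141) was left out, and with finer clusters (-0.35, adjusted p = 0.302).

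Counted together, 7 of 8 members were called between II-like and type I-like cells, beside 24.8% of 15072 genes, 2 between Ib-like and Ia-like cells beside 2.08%, 5 between Ic-like and Ia-like cells beside 5.15% and 2 between Ic-like and Ib-like cells beside 0.531%. These contrasts share samples. Of 32 tests of whether such a class difference changed between E18.5 and P3, 6 passed, beside 0.0986% (Ib over Ia), 0.413% (Ic over Ia), 0.0185% (Ic over Ib) and 7.35% (II over type I) of 16224 genes. The median size of the members' log2 differences was 1.81, 1.11, 1.44 and 0.64, where that over all genes was 0.37, 0.19, 0.21 and 0.17. II-like sums at E18.5 also held more glial markers, 4340 to 5732 CPM, than the Ia-like, Ib-like and Ic-like sums (1538 to 2168 CPM). Their part in the type II contrasts was not tested, because leaving out Sox10-positive cells kept 2 of 25 and 3 of 20 II-like cells at E18.5 and 4 of 18 and 1 of 4 at P3, too few for a sum. At P3 the classes were alike in this respect, at 2578 to 3607 CPM.

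In the other calcium lists, the counts called between II-like and type I-like cells stand beside the 24.8% of all genes called there, with no test of the difference. Of 9 neuronal calcium sensors tested, 4 were lower than in type I, led by Kcnip1 (-4.12 ± 0.50, SE), Kcnip2 (-3.999 ± 0.74) and Vsnl1 (-3.55 ± 0.38). Of 11 EF-hand buffers and S100 proteins tested, 5 were higher and 2 lower, and of 8 calmodulin-type genes 3 were lower, among them Calm2 (-1.32 ± 0.09). Of 22 pumps and store channels 4 were higher and 6 lower. Atp2b4, a plasma membrane calcium pump, was higher by 3.45 ± 0.63 and Ryr3, a ryanodine receptor, lower by -2.85 ± 0.49. Ryr3 was also lower in Ia-like than in Ib-like cells (2.70 ± 0.44 for Ib over Ia) and than in Ic-like cells (3.08 ± 0.45 for Ic over Ia), and at E16.5 it was higher in Ic-like than in intermediate cells (2.50 ± 0.33).

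Hair cells were compared with SGNs in the 2 E18.5 plates, which held 14 and 16 cochlear HC-like cells (6 and 12 IHC-like, 8 and 4 OHC-like) and 13 and 13 vestibular HC-like cells beside 297 and 305 SGN-like cells. These sums are small, at 1248105 to 4361391 counts for IHC-like and OHC-like cells and 3839425 to 4472120 counts for vestibular HC-like cells. A further 10 and 3 HC-like cells of the 2 plates stayed unnamed and entered none of the hair cell sums. Calb1 and Necab2 were far higher in cochlear HCs and Necab1 far lower. IHCs and OHCs differed in all 3 classical buffers.

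**Figure D3:**
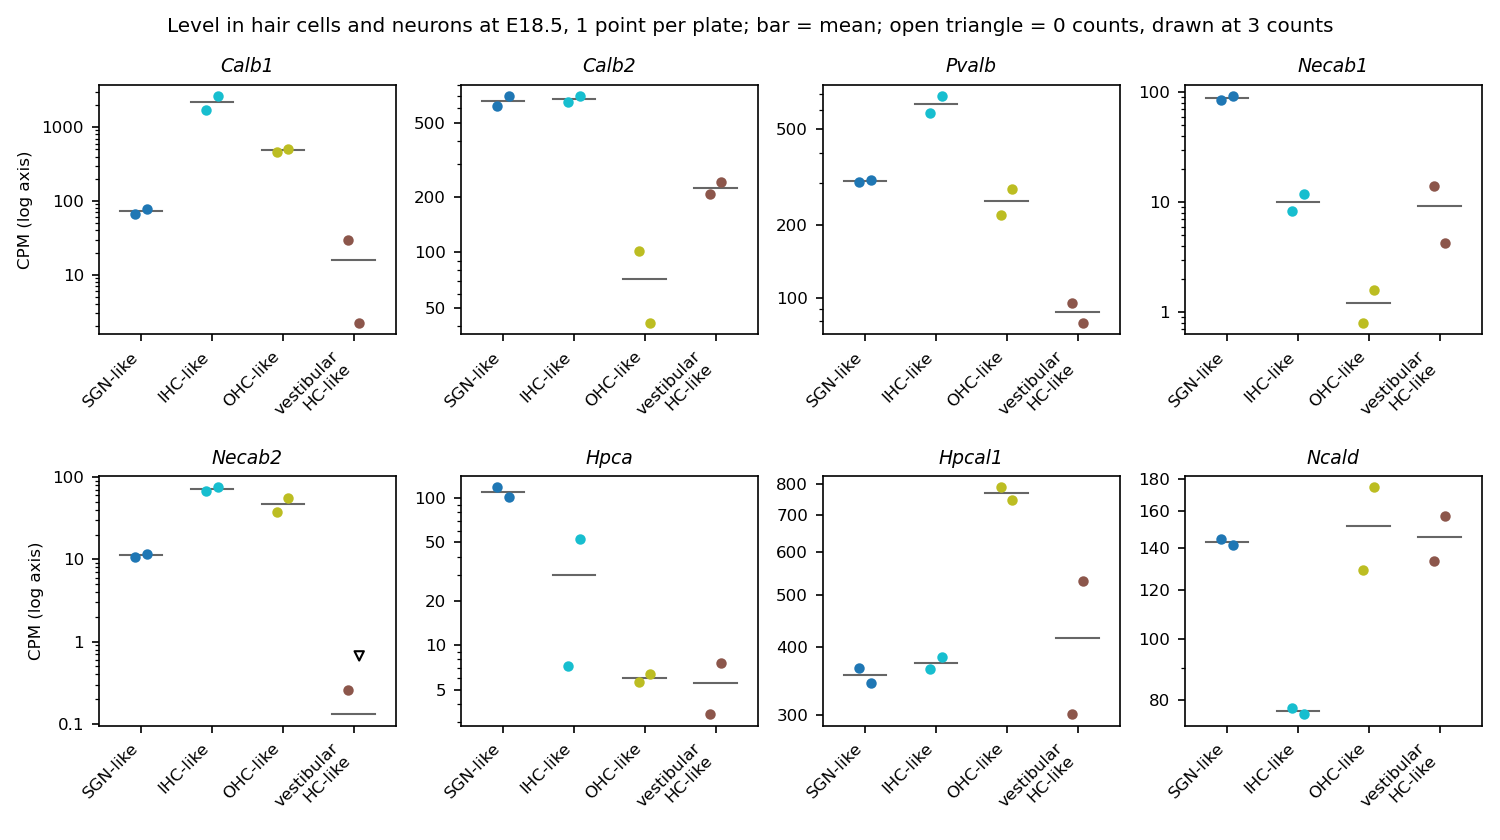
Level of each member (CPM, log axis) at E18.5 in SGN-like, IHC-like, OHC-like and vestibular HC-like cells, with 1 point per plate and a bar at the mean. The open triangle stands for a plate with 0 counts, drawn at the level of 3 counts. Calb1, Calb2 and Pvalb are higher in IHC-like than in OHC-like cells, Hpcal1 is highest in OHC-like cells and Necab1 is highest in SGN-like cells.

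Calb1 was at 1011 and 2173 CPM in cochlear HC-like cells and 66.4 and 78.9 CPM in SGN-like cells, a log2 fold change of 4.41 ± 0.43 (SE, adjusted p = 0.000734). Within HCs it was at 1724 and 2649 CPM in IHC-like and 458 and 508 CPM in OHC-like cells (-2.23 ± 0.20 for OHC over IHC, adjusted p = 0.000117). Vestibular HC-like cells had 29.4 and 2.24 CPM, below the SGN-like sums.

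Calb2 was at 648 and 698 CPM in IHC-like cells, close to the SGN-like 614 and 699 CPM. OHC-like cells had 101 and 41.7 CPM (-3.24 ± 0.33, SE, adjusted p = 0.000219) and vestibular HC-like cells 206 and 240 CPM. The HC-like sums pool both types in unequal shares, and HCs as a whole had 340 and 552 CPM. Their difference from SGNs did not pass at the main settings (-0.60 ± 0.25, adjusted p = 0.0989), though it did with the plate as a block (-0.65, adjusted p = 0.00380). It also passed without the low-count filter (-0.65, adjusted p = 0.0205) and without Sox10-positive SGN-like cells (-0.92, adjusted p = 0.0203), but not under the remaining tested alternatives.

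Pvalb was also higher in IHC-like than in OHC-like cells, with 586 and 688 CPM against 221 and 282 CPM. Vestibular HC-like cells had 95.3 and 78.5 CPM, here below OHC-like cells. OHC-like were below IHC-like cells by a log2 fold change of -1.40 ± 0.19 (SE, adjusted p = 0.00148). HCs and SGNs did not differ at the threshold at the main settings (0.64 ± 0.24, adjusted p = 0.0712). They did with the plate as a block (0.59, adjusted p = 0.00995) and with DESeq2 (0.66, adjusted p = 0.0299). They also did with thinned cells (0.69, adjusted p = 0.0386) and without the low-count filter (0.59, adjusted p = 0.0278), but not under the remaining tested alternatives. For Hpcal1, IHC-like cells were the lower ones instead, at 365 and 383 CPM against 788 and 748 CPM in OHC-like cells (0.99 ± 0.16, adjusted p = 0.00338).

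Necab2, which had fallen in SGNs by E16.5, was at 67.4 and 75.2 CPM in IHC-like and 37.9 and 56.1 CPM in OHC-like cells, and at 10.8 and 11.7 CPM in SGN-like cells of the same plates. HC-like exceeded SGN-like cells by a log2 fold change of 2.39 ± 0.24 (SE, adjusted p = 0.000815). It was on, in the sense defined below, in 5 of 6 and 10 of 12 IHC-like cells. Vestibular HC-like cells had 1 and 0 counts. Necab1 was at 4.04 and 9.63 CPM in HC-like against 85.2 and 92.9 CPM in SGN-like cells (-3.71 ± 0.37, adjusted p = 0.000818), with 2 counts in each OHC-like sum.

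Of the sensors, Hpcal1 was slightly higher in HC-like cells (603 and 465 CPM against 366 and 344 CPM, 0.53 ± 0.14, adjusted p = 0.0253) and Ncald slightly lower (107 and 97.9 CPM against 145 and 141 CPM, -0.54 ± 0.11, adjusted p = 0.0124). Hpca was at 6.29 and 42.3 CPM against 118 and 102 CPM. It did not pass at the main settings (-2.18 ± 0.72, adjusted p = 0.0509), but did with the plate as a block (-2.52, adjusted p = 0.000524). It also passed with DESeq2 (-2.18, adjusted p = 0.00828), with thinned cells (-2.12, adjusted p = 0.00784) and without the low-count filter (-2.23, adjusted p = 0.00410). Leaving out Sox10-positive SGN-like cells gave a pass as well (-2.45, adjusted p = 0.0290), and the remaining tested alternatives did not. The Ncald difference between OHC-like (129 and 175 CPM) and IHC-like cells (77.7 and 75.9 CPM) did not pass either (0.93 ± 0.26, adjusted p = 0.0528), and passed with the block (0.92, adjusted p = 0.0446). It also passed with DESeq2 (0.94, adjusted p = 0.0295) and without the low-count filter (0.92, adjusted p = 0.0158), but not under the remaining tested alternatives.

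In all, 5 members were called between HCs and SGNs, where 52.3% of 15753 genes were. Between OHCs and IHCs 4 were called beside 7.84% of 11445 genes. The median over all genes was -0.13 on the log2 scale in the first of these contrasts and -0.01 in the second. SGN markers summed to 754 to 889 CPM in HC-like sums and to 10120 to 10471 CPM in SGN-like sums, and otic mesenchyme markers to 2138 to 2887 CPM in IHC-like and 803 to 922 CPM in OHC-like sums. Their part in the results was not tested.

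In the other lists, the counts called between HCs and SGNs stand beside the 52.3% of all genes called there, with no test of the difference. Of 9 neuronal calcium sensors tested, 6 were lower and 1 higher in HC-like cells. Vsnl1 had 2 and 0 counts and Kcnip1 2 and 0 counts in HC-like sums, against 7356 and 9906 counts and 2091 and 2370 counts in SGN-like sums. Calmodulin-type genes gave 5 higher and 2 lower of 9. Calml4 and Cabp2, a calcium-binding protein of hair cell synapses, had 4025 and 6610 counts and 733 and 1720 counts in HC-like sums, against 45 and 35 and against 13 and 20 in the far larger SGN-like sums. Cabp2 fell almost wholly to IHC-like cells, with 732 and 1715 counts against 1 and 5 in OHC-like cells. Of 13 buffers and S100 proteins 7 were higher and 4 lower, S100a1 by 7.76 ± 0.38 on the log2 scale. Of 22 pumps and store channels 10 were higher and 3 lower.

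Co-expression was read in single cells. Each cell was thinned to 100000 counts, a member was called on at 5 or more thinned counts, and 33 SGN-like cells with fewer counts were left out. An SGN-like cell had 4.21 members on, as a mean over the 12 plates. Plate means rose from 3.13 and 3.38 at E14.5 to 5.26 and 5.20 at E18.5, and were 5.09 and 4.80 at P3. As background, glia-like cells of the 6 plates in which they carried few neuronal markers had means of 0.462 to 0.706 members on. There, between 0% and 2.13% of cells had Calb1 on, 0% to 1.44% Calb2, 0% to 1.91% Necab1, 0% to 0.957% Hpca and 2.87% to 7.56% Pvalb. Hpcal1 (21.2% to 25%) and Ncald (19.2% to 36.2%) were on in many glia-like cells too. In the E16.5 replicates 1 and 2 and at E18.5, glia-like cells also carried 4860 to 7168 CPM of SGN markers and could not serve as background.

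Calb2 was on in 0 of 69 and 0 of 58 SGN-like cells at E14.5, which allows up to 4.35% and 5.17%, then in 37.1% of 70 at E17.5, 72.3% and 71.4% at E18.5 and 75.3% and 75.2% at P3. At E18.5 Necab1 was on in 54.3% of cells and Calb2 with Necab1 in 48.1%, as means of 2 plates. At P3 every SGN-like cell with Calb1 on also had Pvalb on, at 69.2% for both. Pvalb was on there in every Ia-like, Ib-like and Ic-like cell, and no II-like cell had Calb1 on. The joint share is therefore that of Calb1 alone and shows no link between these members.

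The subtypes held different combinations, given here for P3 replicates 1 and 2. In Ia-like cells (118 and 21) Calb2, Pvalb and Hpcal1 were on in 100% of both plates and Necab1 in 98.3% and 90.5%, while Calb1 was on in 11.9% and 9.52%. In Ib-like cells (131 and 46) Calb2 and Pvalb were on in 100%, Calb1 in 96.9% and 100%, and Necab1 in 46.6% and 37.0%. Ic-like cells (105 and 54) had Pvalb on in 100% and Calb1 in 86.7% and 87.0%, but Calb2 in 23.8% and 46.3% and Necab1 in 9.52% and 3.70%. In replicate 1, the 18 II-like cells had Necab1 and Hpcal1 on in 100%, Pvalb in 50%, Calb2 in 33.3% and Calb1 in 0, which allows up to 16.7%. Hpcal1 was on in 64.9% and 60.9% of Ib-like and 68.6% and 44.4% of Ic-like cells at P3, against 93.1% and 87.5% and against 97.9% and 100% at E18.5.

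In cochlear hair cells several members were on in every cell, so that this measure cannot show their differences in level. All 18 IHC-like and all 12 OHC-like cells had Calb1, Pvalb and Hpcal1 on. Calb2 was on in all IHC-like cells and in 7 of 8 and 3 of 4 OHC-like cells. Necab2 was on in 5 of 6 and 10 of 12 IHC-like and in 3 of 8 and 1 of 4 OHC-like cells, and Necab1 in 0 of 6 IHC-like cells, which allows up to 50%, and 1 of 12. An IHC-like cell had 5.67 and 5.58 members on, as means of the 2 plates, and an OHC-like cell 5.25 and 4.75.

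**Figure D4:**
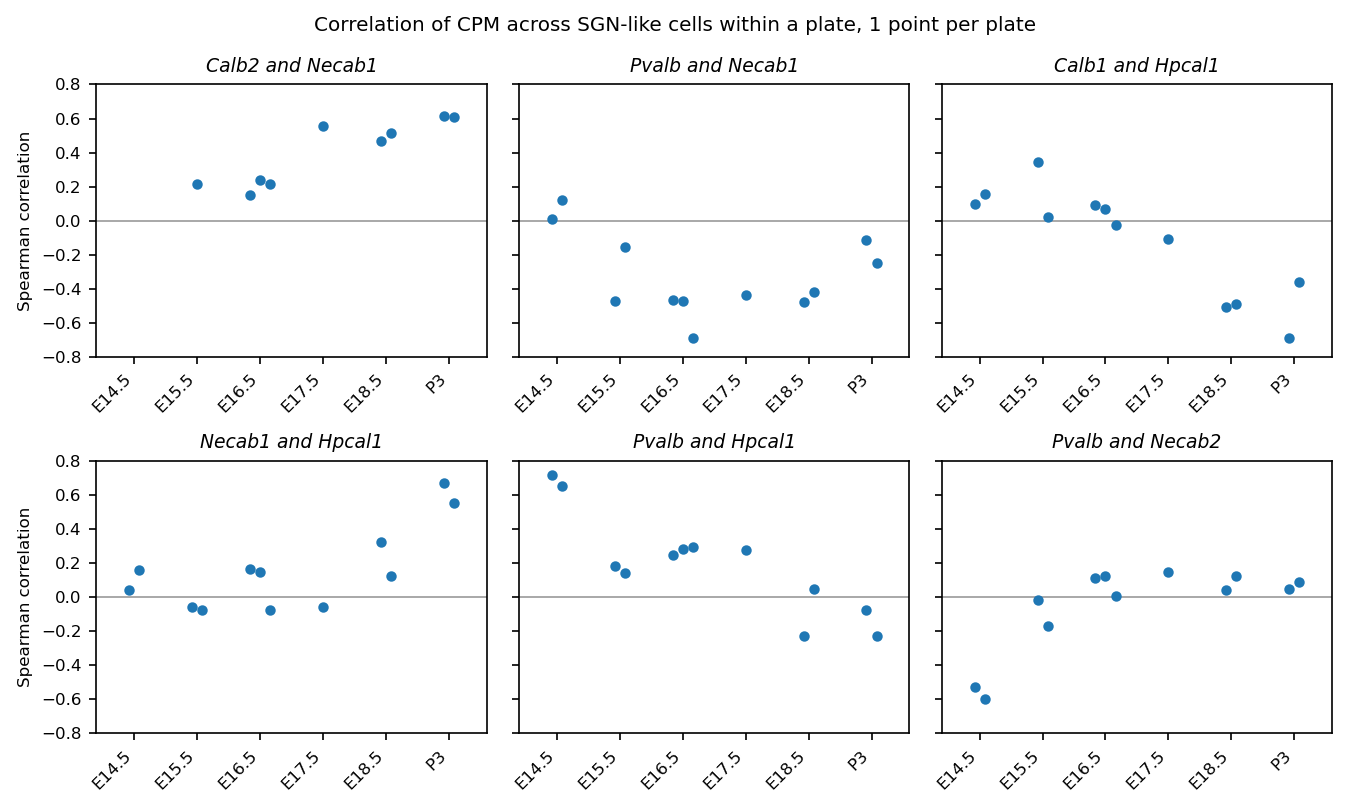
Spearman correlation of CPM across the SGN-like cells of a plate for 6 pairs of members against stage, with 1 point per plate. Calb2 with Necab1 goes up to 0.62 at P3, Pvalb with Necab1 is below 0 from E15.5 on, and the pairs of Pvalb with Hpcal1 (0.65 and 0.72) and with Necab2 (-0.60 and -0.53) are farthest from 0 at E14.5. Calb2 had no counts in 3 early plates, which have no point.

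Across SGN-like cells of a plate, 58 to 372 in number, the Spearman correlation of CPM changed with stage for several pairs. All cells of a plate share its library batch and a gene's values also depend on cell depth, so these are descriptions. At E14.5 the strongest pair was Pvalb with Hpcal1 (0.65 and 0.72), while Pvalb with Necab2 was at -0.60 and -0.53 and Necab2 with Hpcal1 at -0.44 and -0.40. At E15.5 the first pair was at 0.18 and 0.14 and the second at -0.02 and -0.17. Pvalb with Necab1 turned negative, at -0.47, -0.47 and -0.69 in the 3 E16.5 plates, -0.44 at E17.5 and -0.48 and -0.42 at E18.5, and was at -0.12 and -0.25 at P3.

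Other pairs stood out late. Calb2 with Necab1 was at 0.55 at E17.5, 0.47 and 0.51 at E18.5 and 0.62 and 0.61 at P3. Calb1 with Hpcal1 was at -0.51 and -0.49 at E18.5 and -0.69 and -0.36 at P3, and Necab1 with Hpcal1 at 0.32 and 0.12 and then 0.67 and 0.56. Within Ia-like cells of E18.5 and P3, Calb2 with Necab1 ranged from -0.03 to 0.22 over 4 plates, and within Ib-like cells from 0.02 to 0.14. Within Ic-like cells it ranged from 0.08 to 0.67, and Calb2 with Pvalb from -0.69 to 0.25. Within II-like cells of 3 plates it lay between -0.33 and -0.05, and Calb2 with Pvalb ranged from 0.39 to 0.62.

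Across 33 subtype sums of at least 10 cells, the genes with the most similar pattern of log2(CPM + 1) among 9987 genes were sought for each member. They were Cdk14, C530008M17Rik and Phactr1 for Calb1 (Pearson r 0.86, 0.84 and 0.78) and Cdh9, Cryz and Dync1i1 for Calb2 (0.94, 0.91 and 0.91). For Pvalb they were Kcna1, Pitpnc1 and Mtmr7 (0.88, 0.87 and 0.80), and for Necab1 they were Kitl, Tmprss3 and Syndig1 (0.92, 0.91 and 0.88). Necab2 went with Neurod1 and Eif4e3 (0.84 and 0.83), Hpca with St6galnac6, Cntnap5a and Lrrfip1 (0.83, 0.82 and 0.81), Hpcal1 with Opcml, Tmem132e and Fam196b (0.84, 0.80 and 0.80) and Ncald with Six2, Spns2 and Gatsl2 (0.80, 0.80 and 0.80). Cdh9, Tmprss3 and Neurod1 had been used to name classes. Among the members themselves the highest value was that of Calb2 with Necab1 (0.62). The sums share plates and stages, so no p is given.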

How the data were processed

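Full-length Smart-seq2 libraries of single cells from 12 plates were analysed, 1 plate being 1 sample. The deposited values are raw read counts per gene and well, which the authors made by aligning to mm10 with ERCC spike-in sequences in STAR, keeping uniquely mapped reads and counting with featureCounts. Annotation and strand setting were not given in the sources used here. There are no molecular identifiers, so intervals and limits cover counting error only. A further 384 wells belong to a plate with no sample and were not used.

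Of 4608 wells, 4226 with more than 1000 genes and less than 5% ERCC reads were kept. Cells were clustered with Scanpy 1.11.5 (2000 variable genes, 30 components, Leiden resolution 1), leaving out the 8 members, the 4 lists of calcium genes and a set of glial genes. For the SGN subtypes, 1960 genes whose levels followed glial or mesenchymal markers were left out as well. Clusters were named from fixed markers, by a rule revised after the cluster tables were seen and before any test. Single cells were sorted into wells, and doublets were not called here, while the study left out cells it considered doublets. Wells with material of more than 1 cell can therefore remain. Of the 2251 SGN-like cells, 861 had Sox10 at 10 CPM or more. Well names include the plate name, and 0 of 4608 were held by more than 1 plate, which does not bear on doublets. Median counts per SGN-like cell were 228326 to 1092430 over the plates.

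Counts were summed per class and plate (at least 5 cells, 3 for hair cells) and tested with edgeR 4.0.16 (TMM scaling, filterByExpr, quasi-likelihood F test), with Benjamini-Hochberg adjustment over all genes tested and a threshold of 0.05. Levels in CPM are unscaled by TMM, while fold changes are scaled. The standard error is the log2 fold change divided by the square root of F. Stages were fitted together over all 12 SGN-like sums, late classes together with stage as a term, and hair cells within E18.5. The code was tested on simulated data. Classes of 1 plate come from the same sorted pool, so the plate pairs them, and a fit with the plate as block was an alternative, as were DESeq2 1.42.0, upper-quartile scaling, no low-count filter, the cell filter of the study's Reporting Summary (2500 genes, 50000 counts and up to 25% ERCC reads), thinning to 100000 counts, Leiden resolution 2, leaving out SGN-like cells with Sox10, and leaving out each plate. For stages, the p-values measure the spread between plates, each of which pools animals. In the class fits without the block, sums of 1 plate entered as separate samples. In the late class fit, the spread also holds any change of a class difference between E18.5 and P3. The p-values of that fit therefore do not measure the spread between plates alone.

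The 8 members are always named. Of the 4 lists, up to 3 called genes by size of change were named per comparison, and for each member the 3 genes of highest Pearson r. For Necab2, 1 of these is not reported here. The members and lists were chosen with earlier results of these data known. Gene models were from GENCODE on GRCm38.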

Additional observations from a re-analysis of the deposited data

Results flagged for a closer look

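The class differences were compared between P3 and E18.5 with an interaction term (edgeR quasi-likelihood test, Benjamini-Hochberg adjustment over 16224 genes), and 6 of 32 tests on members passed. They are listed because the effect of class differed between the 2 stages. They were not recomputed under the other settings.

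For Calb1, the Ib-like over Ia-like log2 difference was larger at P3 than at E18.5 by 1.96 ± 0.23 (SE, adjusted p = 0.00489), and the Ic-like over Ia-like difference by 2.09 ± 0.23 (adjusted p = 0.000916). Over all genes 0.0986% and 0.413% were called in these tests. Calb1 was at 19.3 and 30.6 CPM in Ia-like cells at E18.5 and 18.3 and 15.496 CPM at P3, while Ib-like cells went from 322 and 298 to 854 and 793 CPM. For Hpcal1, the Ic-like over Ia-like difference changed by -2.76 ± 0.31 (adjusted p = 0.000916), from overlapping plates at E18.5 to 85.0 and 45.6 CPM against 480 and 411 CPM at P3. For Hpca, the Ic-like over Ia-like difference changed by 1.36 ± 0.27 (adjusted p = 0.0442): Ia-like cells had 159 and 126 CPM at E18.5 and 42.2 and 31.3 CPM at P3, and Ic-like cells 88.3 and 87.0 CPM and then 63.0 and 55.2 CPM.

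Between II-like and type I-like cells, the Calb1 difference changed by -3.51 ± 0.33 (adjusted p = 8.25e-05) and the Hpcal1 difference by 1.90 ± 0.28 (adjusted p = 0.00165), where 7.35% of genes were called. II-like cells at P3 come from 1 plate, so these 2 results assume that it varies like the other sums.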

How the results depend on the processing

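Of 80 member results, 36 were called. Of these, 25 were called under every alternative in which they were tested and 11 were lost under at least 1, and no called result changed sign. Of the 44 others, 16 never passed and 28 passed under at least 1 alternative, 16 of them without the low-count filter, 11 with DESeq2 and 9 without E16.5 replicate 3. Besides the losses given above, Hpca in II-like cells was lost under the cell filter of the Reporting Summary (-0.61, adjusted p = 0.0531) and with thinned cells (-0.62, adjusted p = 0.0534).

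The number of genes called rose with DESeq2 from 2676 to 4099 (E16.5 against E14.5), 835 to 1874 (E18.5 against E16.5), 313 to 598 (Ib-like against Ia-like), 776 to 1192 (Ic-like against Ia-like), 80 to 257 (Ic-like against Ib-like) and 257 to 695 (Ic-like against intermediate at E16.5). Without the filter the 3 type I contrasts gave 772, 1310 and 454, and OHC-like against IHC-like 1399 in place of 897. Thinned cells gave 1.5e+02 for Ic-like against Ib-like and 493 for OHC-like against IHC-like. Leaving out Sox10-positive cells gave 161, 466 and 51 for the type I contrasts, finer clusters gave 2026 in place of 3731 for II-like cells, and series SS2_20 alone 875 for E16.5 against E14.5. The mean number of members on per SGN-like cell went from 4.21 to 5.10 at a limit of 1 thinned count and to 3.39 at 10. Leaving out Sox10-positive cells gave no value for II-like cells, since no late plate kept 5 of them, and P3 replicate 2 also dropped out for Ia-like cells (4 of 21 kept). The cause of these changes was not tested.

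Leaving out 1 plate at a time gave 1478 to 3519 genes for E16.5 against E14.5, 87 to 1233 for E18.5 against E16.5 (lowest without E18.5 replicate 1), 2126 to 5172 for P3 against E18.5, 2290 to 3738 for II-like cells, 118 to 243, 366 to 741 and 7 to 111 for the type I contrasts, and 25 to 1365 at E16.5 (highest without E16.5 replicate 3). For hair cells, leaving out 1 of 2 plates leaves no residual degrees of freedom, so it gave values with no test.

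With the plate as a replicate block, II-like against type I-like cells gave 3695 genes, and Pvalb in that contrast was at -3.15 (adjusted p = 3.29e-07). The block moved 6 member results past the threshold, each given above, and changed no other member call. No paired analysis was possible between stages because their plates come from different animals. Small hair cell sums limit the depth, at 1248105 counts for the smallest OHC-like sum.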

Other observations

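Unnamed SGN-like cells at E14.5, 13 in replicate 1 and 19 in replicate 2, had 405 and 361 CPM of Pvalb, 624 and 476 CPM of Hpcal1 and 5.56 and 15.2 CPM of Necab2. The unspecialized-like cells of the same plates had 88.6 and 105 CPM of Pvalb, 248 and 193 CPM of Hpcal1 and 188 and 152 CPM of Necab2. The unnamed cells carried no class label, so these are values without a comparison.

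At E17.5, with 1 plate and thus no test, Calb2 was at 173 CPM in 30 Ia-like cells, 65.2 CPM in 8 Ib-like cells and 0 in 18 Ic-like cells. Calb1 was at 34.4, 78.8 and 97.3 CPM, Necab1 at 167, 113 and 0 CPM, Pvalb at 116, 134 and 410 CPM, and Necab2 at 8.53, 24.95 and 44.4 CPM in the same order.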
